A study of Mus musculus with 4 samples.

Results

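The conventional CD4 T cells of MC38 tumors described here were 358 of the 28194 cells kept from 4 single-cell libraries. They were selected on measured transcripts, namely at least 3 UMIs over Cd3d, Cd3e and Cd3g, at least 1 UMI of Cd4, none of Cd8a, Cd8b1, Foxp3 or Il1rl1, and less than 0.2% of their UMIs on the macrophage genes C1qa, C1qb, C1qc and Csf1r. Cells also needed at least 500 detected genes and at most 10% mitochondrial UMIs. A UMI, or unique molecular identifier, marks 1 captured molecule, so that UMIs count molecules and not copies made by PCR. The levels of these 12 genes chose the cells and carry no test below.

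CD4 T cells recognise peptides on MHC class II and help other immune cells through cytokines and through CD40 ligand. The conventional cells lack Foxp3, which defines regulatory T cells (Tregs), and take on helper programs such as Th1, with T-bet and interferon-γ, or Th2, with GATA3 and IL-13. Il1rl1 encodes the IL-33 receptor, which type 2 helper cells and some Tregs carry, so that leaving out cells with its transcript removes part of the Th2 cells. CTLA-4 is an inhibitory receptor of activated T cells and Tregs, and FcγRII is the inhibitory Fc receptor of the mouse.

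The cells came from B-hCTLA-4 mice, C57BL/6 animals that carry a humanized CTLA-4 gene, inoculated under the skin with 500000 MC38 colon carcinoma cells. Treatment began at a tumor size of about 100 mm3, 3 treatments were given, and viable CD45+ cells were sorted on day 8. Each library pooled the tumors of 11 mice, and the sample records give no age. The isotype library received human IgG1 at 10 mg/kg, and the combination library received ipilimumab (αCTLA-4, human IgG1) at 10 mg/kg with αFcγRII, the antibody AT130-2 as mouse IgG1 with the N297A change, at 20 mg/kg. For both single-antibody libraries the title and the treatment field name opposite antibodies, so that they are called the library titled αCTLA-4 and the library titled αFcγRII, and it is not settled which of them was given ipilimumab. The article gives other doses, tumor sizes, group sizes and a different day for this experiment, and the sample records are followed here. Whether the Ctla4 probes read the humanized gene is not given in the sources used here. With 1 library a group, treatment and library cannot be told apart, no test between treatments was possible, and all intervals are 95% intervals that cover counting error only.

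The libraries held 178178393 UMIs (isotype), 129151823 (titled αCTLA-4), 142472286 (titled αFcγRII) and 196362818 (combination). The conventional CD4 T cells were shallow against the whole libraries: their median was 3630, 3743, 3539 and 5164 UMIs, in the same order of libraries, where all cells had medians of 14836, 15300, 19115 and 18495. A smaller set of the cells was deeper. Cells over 10000 UMIs, a limit set after the data were seen, numbered 8 of 95, 12 of 158, 0 of 34 and 23 of 71, and they held 29.9%, 23.9%, 0% and 66.5% of the summed UMIs of the conventional CD4 T cells. Depths showed no gap at this limit, which marks no separate group. The nearest cells below and above it had 9868 and 10210 UMIs in the isotype library. They had 9392 and 10229 in the library titled αCTLA-4 and 9493 and 10075 in the combination library.

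Most of these deep cells carried macrophage RNA above the level of the shallower cells. On 9 macrophage markers outside the gate they spent a median of 1.61% of their UMIs in the isotype library, 0.793% in the library titled αCTLA-4 and 1.18% in the combination library. The shallower cells spent 0.128%, 0.0781%, 0.0687% and 0.121%, whereas cells with macrophage markers and no CD3 spent between 3.07% and 3.62%. At 0.5% or more lay 6 of 8, 8 of 12 and 17 of 23 deep cells, against 7, 0, 0 and 1 of the shallower cells of the 4 libraries. The highest of these shallower cells, at 1.40% with 9868 UMIs, lay in the isotype library just under the limit. The lowest deep cells, at 0.0524%, 0.00753% and 0.0197%, lay below the medians of the shallower cells. Over all 13 macrophage and monocyte markers measured, 4 of which are genes of the gate and so were held low by it, the summed level was 6999 UMIs per 1000000 UMIs of the members (CPM) in the isotype library, 3583 in the library titled αCTLA-4, 1187 in the library titled αFcγRII and 10110 in the combination library. Without the deep cells it was 2725, 1022, 1187 and 1772. The gene of this list with the most UMIs, a rank that also depends on its probes, was Ctss, a lysosomal protease, in 3 libraries, at 1748, 1012 and 495 CPM, and Lyz2, lysozyme, in the combination library, at 2858 (335 without the deep cells). Mrc1, a macrophage marker outside the gate, was at 0 in the library titled αFcγRII. Neutrophil markers summed to 62.9, 878, 0 and 273 CPM and dendritic cell markers to 78.1, 111, 7.61 and 223, and without the deep cells these sums were at most 59.9 and 27.8 in any library. Many values below are therefore also given without the deep cells, and the part of macrophage RNA in results over all members was not tested beyond that.

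**Figure D1:**
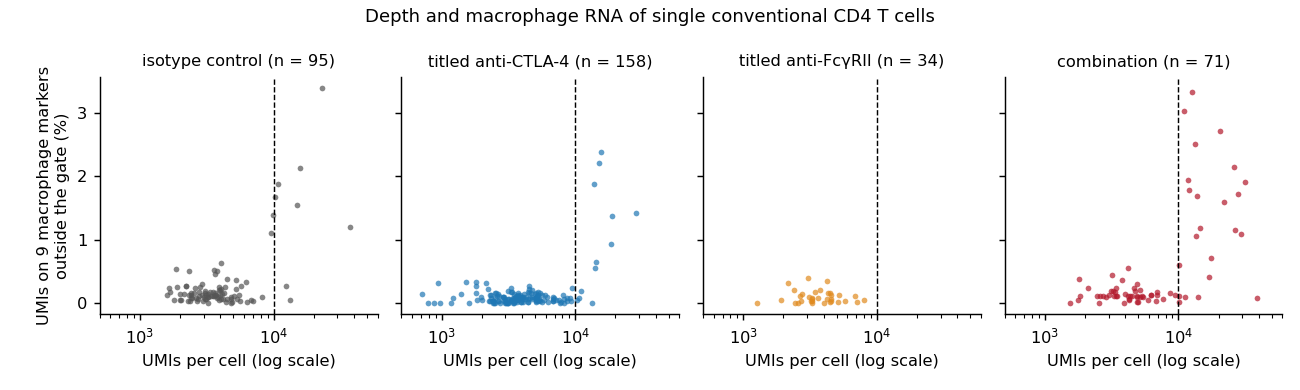
Percent of UMIs on 9 macrophage markers outside the gate (vertical axis) against UMIs per cell (horizontal axis, log scale) for each conventional CD4 T cell, 1 panel a library; the dashed line marks 10000 UMIs. Of the 8, 12, 0 and 23 cells over the line, 6, 8, 0 and 17 lie at 0.5% or more.

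The markers of the label were present. Icos, an inducible costimulatory receptor of T cells that the gate did not use (chr1:60977927-61000320, plus strand, mm10), was detected in 69.5%, 77.8%, 73.5% and 85.9% of the cells as sequenced. With each cell drawn down to 2202 UMIs, which leaves out 11, 17, 3 and 5 shallower cells, the shares were 57.9% (interval 47.1 to 69.0), 65.1% (56.8 to 73.1), 57.4% (39.1 to 75.5) and 58.1% (44.8 to 69.7). Macrophage-marked cells without CD3, with median depths of 18052 to 24808 UMIs before drawing down, showed it in 0.220%. Cd40lg, which encodes CD40 ligand (chrX:57212143-57224042, plus strand), was found in 39.8%, 45.9%, 43.6% and 37.8% at the same depth, against 0.0110% of macrophage-marked cells. Its shares without the deep cells were 42.7%, 47.4%, 43.6% and 40.75%. As gated, the median cell had 14, 16, 14 and 17 CD3 UMIs and 4, 5, 5.5 and 7 Cd4 UMIs. Trac, the constant gene of the T cell receptor α chain, which the gate did not use, stood at 2042, 2437, 2740 and 1233 CPM over all members and at 2577, 2842, 2740 and 2365 in the cells up to 10000 UMIs. It was lowest in the combination library over all members, and in the cells up to 10000 UMIs the intervals of the combination and isotype libraries overlapped.

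Several cells lay at the limits of the gate. With exactly 3 CD3 UMIs there were 9 members, and 6 further cells failed with 2. With exactly 1 Cd4 UMI there were 35 members, and 315 cells that met every other limit had no Cd4 UMI. Of 137 cells that only Foxp3 kept out, 4 had a single Foxp3 UMI, and of 80 that only Il1rl1 kept out, 18 had a single UMI. On the macrophage limit, 15 members had between 0.15% and 0.2% of their UMIs on the 4 genes. Of 619 cells that only this limit kept out, 11 had between 0.2% and 0.25%. No full barcode occurred in more than 1 library. The part of the barcode that marks the droplet was shared across libraries for 4461 of 23366 droplets, and 111 of the 358 members shared a droplet with another called cell.

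Conventional CD4 T cells were scarce everywhere under this gate. They made up 1.17% of kept cells in the isotype library (95 of 8148, interval 0.944 to 1.42), 2.48% in the library titled αCTLA-4 (158 of 6364, 2.11 to 2.90), 0.559% in the library titled αFcγRII (34 of 6083, 0.387 to 0.780) and 0.934% in the combination library (71 of 7599, 0.730 to 1.18). The combination share was 0.801 times the isotype share, with an interval of 0.590 to 1.09 that includes 1, so that no difference was detectable at these cell numbers. The library titled αCTLA-4 lay above the other 3 beyond counting error. As a share of the cells past the CD3 and macrophage limits, the conventional CD4 T cells were 23.4% of 406 (19.4 to 27.8), 24.1% of 655 (20.9 to 27.6), 15.8% of 215 (11.2 to 21.4) and 14.9% of 476 (11.8 to 18.4). On that denominator the library titled αCTLA-4 was level with the isotype library, and the combination library lay below both with intervals that did not overlap theirs.

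Among CD4 T cells their share followed another order. They were 48.0% of the 198 CD4 T cells of the isotype library (interval 40.9 to 55.2), 67.2% of 235 in the library titled αCTLA-4 (60.8 to 73.2), 43.0% of 79 in the library titled αFcγRII (31.9 to 54.7) and 62.8% of 113 in the combination library (53.2 to 71.7). The rest of the CD4 T cells were Foxp3+ Tregs, which numbered 90, 48, 39 and 10, and Foxp3-negative cells with Il1rl1, which numbered 13, 29, 6 and 32. Because Foxp3 and Il1rl1 UMIs are missed more often in shallow cells, the gate was also applied after drawing all T cells down to 1 depth, which left means of 74.5, 134, 31.3 and 58.3 members over 100 draws.

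Within the cells, a gene of quiescent T cells was found less often beside a gene of tissue T cells, a description with no test. In 315 cells up to 10000 UMIs, Cxcr6, a chemokine receptor of tissue-resident T cells (chr9:123806475-123811760, plus strand), was detected in 163 cells. Klf2, a transcription factor that maintains quiescence and egress, was found in 31.9% of the cells with Cxcr6 and in 64.5% of the 152 without. Icos had the opposite order, with 85.9% against 63.8%. Median depths of these sets differed somewhat, at 4002 and 3314 UMIs. The shares pool the 4 libraries and describe cells, which are not replicates.

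Factors of Th1 and Th2 cells were detected above their shares in macrophage-marked cells. At the common depth, Tbx21, which encodes the Th1 factor T-bet, was detected in 18.5%, 28.8%, 32.8% and 21.3% of members, with unthinned shares of 27.4%, 39.9%, 41.2% and 42.2%, and in 0.953% of macrophage-marked cells. Gata3, the Th2 factor that T cells also keep at low level, was detected in 40.4%, 42.6%, 38.3% and 33.7%, with unthinned shares of 56.8%, 60.1%, 47.1% and 59.2%, and in 0.422% of macrophage-marked cells. Cxcr3, a chemokine receptor of Th1 cells, was found in 64.4%, 61.7%, 58.9% and 53.8%, with unthinned shares of 74.7%, 72.2%, 67.6% and 78.9% and 0.791% in macrophage-marked cells. Its shares without the deep cells were 68.0%, 65.2%, 58.9% and 68.7%, so that the combination library was no longer lowest. Those of Tbx21 were 19.2%, 29.35%, 32.8% and 24.3%, and those of Gata3 42.5%, 43.9%, 38.3% and 37.25%. Il17a, the Th17 cytokine, had at most 3 UMIs in any library. Bcl6, the factor of follicular helper cells, was found in 8.42%, 8.96%, 3.92% and 14.9%, less than the 19.8% of macrophage-marked cells, and nothing is read from it. The widest counting intervals belong to the library titled αFcγRII with 31 cells at this depth, and none of these orders was tested.

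Pdcd1, which encodes PD-1, an inhibitory receptor induced on activated T cells (chr1:94038305-94052553, minus strand), was higher in the combination than in the isotype library. It was detected at the common depth in 17.9% of members in the isotype library (interval 10.4 to 27.7), 30.6% in the library titled αCTLA-4 (23.0 to 38.8), 33.5% in the library titled αFcγRII (16.7 to 51.4) and 52.3% in the combination library (40.3 to 65.4). Unthinned shares were 28.4%, 42.4%, 41.2% and 64.8%, and macrophage-marked cells showed 0.390%. The combination share was 2.92 times the isotype share (1.75 to 4.87), and without the deep cells the shares were 17.5% and 61.5%. Summed levels ran in the same order, at 230, 345, 449 and 550 CPM, and the ratio of the combination to the isotype library was 2.39 (1.92 to 3.00) over all members and 3.44 (2.67 to 4.46) up to 10000 UMIs.

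Bhlhe40, a transcription factor of cytokine-producing helper cells (chr6:108660629-108666925, plus strand), was detected in 30.8% (21.3 to 42.0), 36.3% (28.2 to 44.7), 32.8% (16.7 to 51.4) and 62.8% (49.3 to 73.8) of members. Its unthinned shares were 38.9%, 48.1%, 38.2% and 77.5%, and its share in macrophage-marked cells, which express the gene themselves, was 25.5%. Summed Bhlhe40 levels were 384, 345, 784 and 928 CPM; the high value of the library titled αFcγRII held 53 of its 103 UMIs in 1 cell. The ratio of the combination to the isotype library was 2.42 (2.04 to 2.88), and 3.39 (2.63 to 4.40) without the deep cells.

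Ccr8, a chemokine receptor of activated tumor T cells and Tregs (chr9:120092114-120094906, plus strand), was detected in 5.67% (1.96 to 13.4), 12.7% (7.75 to 19.4), 8.62% (2.04 to 25.8) and 27.1% (17.0 to 39.6) of members, with unthinned shares of 8.42%, 15.8%, 11.8% and 40.9% and 0.0494% in macrophage-marked cells. The combination share was 4.78 times that of the isotype library (1.84 to 12.5). The summed level of Ccr8 was 43.4, 120, 183 and 236 CPM, and 17 of the 24 UMIs of the library titled αFcγRII lay in 1 cell. The ratio of levels was 5.44 (3.40 to 9.16), and 6.71 (3.78 to 12.7) in cells up to 10000 UMIs. Because Tregs also carry Ccr8, other Treg genes were read in the same cells. The 10 Treg markers, Foxp3 and Ccr8 included, summed to 624, 836, 1012 and 807 CPM over all members and to 625, 824, 1012 and 909.7 in the cells up to 10000 UMIs. Of 5 tested outside the gate, Ccr8 among them, 3 had a combination to isotype ratio above 1. The median log2 ratio of the 5 was 0.33. Without the deep cells 3 of 3 were above 1, again with Ccr8 among them, with a median of 0.63. These counts and medians hold the gene that prompted them, so that nothing is read from them on other Treg genes. Il2ra, the high-affinity IL-2 receptor chain, stood at 75.9, 108, 198 and 114 CPM in conventional cells against 1329, 481, 1156 and 645 in Tregs, and Ikzf2, which encodes Helios, at 86.7, 118, 236 and 65.8 against 1012, 688, 635 and 519.

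The following genes, picked from several lists with their values known, had ratios that differed between all members and the shallower cells. Cxcr6 was detected in 35.7%, 45.2%, 57.4% and 52.3% at the common depth (unthinned 46.3%, 53.8%, 58.8% and 67.6%). The ratio of its summed level, combination to isotype, was 1.59 over all members and 2.37 (1.92 to 2.95) without the deep cells. Ctla4 had a ratio of 1.09 (0.775 to 1.54) over all members and 2.19 (1.48 to 3.26) without the deep cells. Tnfrsf4, which encodes the costimulatory receptor OX40, had ratios of 1.78 and 2.17, and Rbpj, the transcription factor of Notch signalling, 1.78 and 2.24. Il12rb2, the signalling chain of the IL-12 receptor, had 1.68 and 2.27. Icos had 0.737 (0.619 to 0.877) over all members and 1.25 (1.03 to 1.52) without the deep cells, a change of direction. Of the cytokine receptor list, 1 gene was at least 2-fold higher and 2 lower of 14 without the deep cells, and of the costimulatory receptors 1 of 10 was higher.

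**Figure D2:**
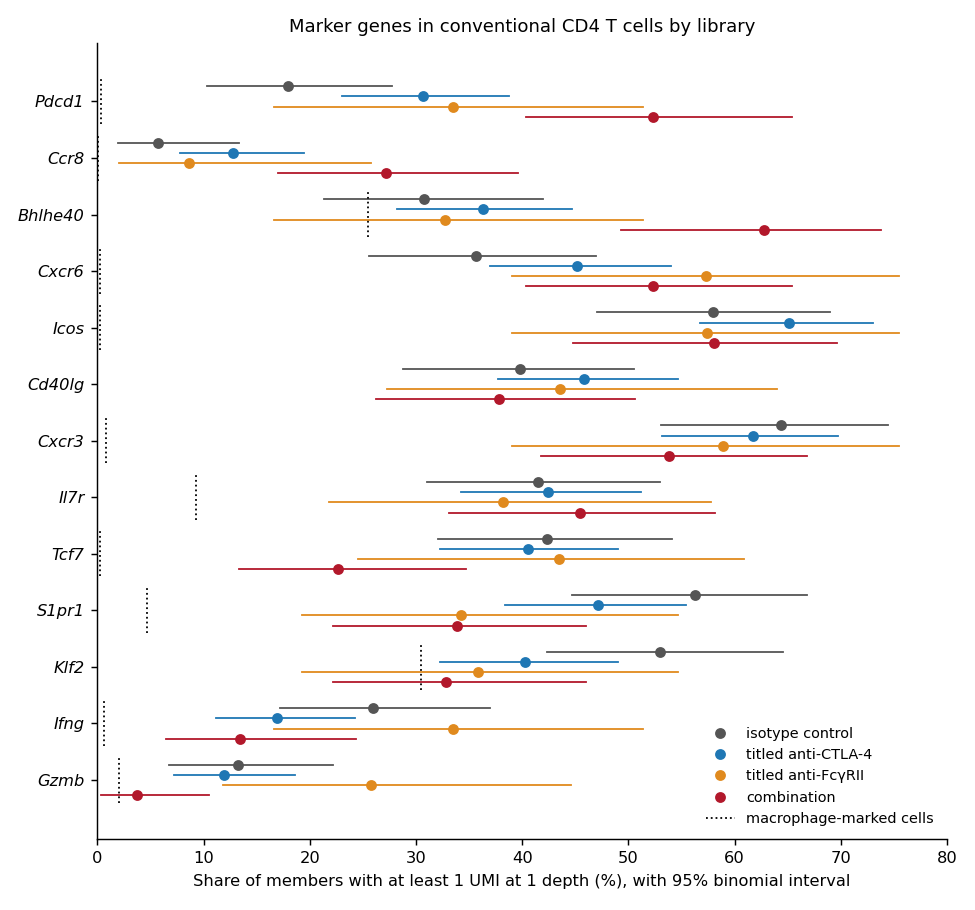
Share of conventional CD4 T cells with at least 1 UMI of each marker after drawing every cell down to 2202 UMIs (horizontal axis, percent), by library, with 95% binomial intervals as lines; dotted ticks give macrophage-marked cells at the same depth. Pdcd1, Bhlhe40 and Ccr8 are highest in the combination library, at 52.3%, 62.8% and 27.1%, and Tcf7 is lowest there, at 22.6%.

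Over all members Tcf7, Klf2 and S1pr1, genes of quiescent and recirculating cells, were lower in the combination than in the isotype library. Tcf7, which encodes TCF-1, a factor of naive, memory and stem-like T cells (chr11:52252371-52283014, minus strand), was detected in 42.4% (32.1 to 54.1), 40.6%, 43.4% and 22.6% (13.3 to 34.7) of members, with unthinned shares of 50.5%, 55.1%, 52.9% and 36.6%. The combination share was 0.534 times the isotype share (0.320 to 0.890). The isotype and combination shares of Tcf7 without the deep cells, 45.15% (33.3 to 56.6) and 27.7% (15.3 to 43.7), had overlapping intervals. The ratio of summed Tcf7 levels was 0.493 (0.364 to 0.665), and 0.705 (0.486 to 1.01) without the deep cells, an interval that includes 1. Klf2 levels were 661, 491, 540 and 281 CPM, with a ratio of 0.424 (0.350 to 0.513) that was 0.347 (0.257 to 0.462) without the deep cells. Its thinned share in the combination library, 32.9%, was near the 30.5% of macrophage-marked cells. S1pr1, the receptor for egress from tissue that Klf2 controls, was detected in 56.2% (44.7 to 66.8), 47.2%, 34.3% and 33.8% (22.2 to 46.0), with unthinned shares of 68.4%, 58.2%, 44.1% and 53.5%. Without the deep cells the shares of S1pr1 in the isotype and combination libraries, 59.9% (48.6 to 71.6) and 41.6% (27.01 to 57.9), had overlapping intervals, and the ratio of its summed levels was 0.441 (0.347 to 0.558) over all members and 0.665 (0.501 to 0.874) without the deep cells. For Il7r, the IL-7 receptor chain, shares of 41.5%, 42.4%, 38.2% and 45.4% showed no such order.

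Over the whole transcriptome, 269 of 5403 genes with at least 50 UMIs in the isotype and combination libraries together were at least 2-fold higher in the combination library (4.98%), and 133 were at most 0.5 times as high (2.46%). In cells up to 10000 UMIs, 59 of 2983 genes were higher (1.98%) and 66 lower (2.21%). The fold chose these genes and no count of them is a test. Gene lists are described by their medians beside that of all genes tested, which was a log2 ratio of -0.09 over all members and -0.02 without the deep cells. Scaling by the median of ratios in place of total UMIs moved the first of these from -0.09 to 0.04. A ratio above 1 was found for 2206 of the 5403 genes over all members and for 1436 of the 2983 without the deep cells.

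The naive and central memory list, 12 genes, had no member above a ratio of 1 over all members, 3 at most 0.5 (Klf2, S1pr1 and Tcf7), and a median log2 ratio of -0.87. Without the deep cells 2 of 11 were above 1, 1 was at most 0.5 and the median was -0.44. The stress and dissociation list was lower too, with 3 of 11 genes above 1 and a median of -0.29 over all members, and 0 of 8 above 1, 2 at most 0.5 and a median of -0.61 without the deep cells. Its part in the other lists was not tested. The 7 measured genes of glycolysis were all above 1 with a median of 0.71, and 6 of 6 stayed above 1 without the deep cells with a median of 0.47. Ldha, lactate dehydrogenase A, stood at 733, 705, 472 and 1087 CPM, and its ratio was 1.48 over all members and 1.60 (1.32 to 1.94) without the deep cells. Hk2, hexokinase 2, had ratios of 3.39 and 2.65, and Slc2a1, the glucose transporter GLUT1, 2.37 and 1.58.

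The cytokine and early activation lists had medians above 0 over all members, and fewer of their genes were tested without the deep cells. Of 17 cytokine and helper ligand genes tested, 9 were at least 2-fold higher and 1 lower, with a median of 1.41, and without the deep cells 1 of 9 was higher and 1 lower with a median of 0.44. Of 13 early activation genes, 5 were at least 2-fold higher with a median of 0.52, against 0 of 6 and 0.21 without the deep cells. In those cells 6 of the 9 cytokine genes and 5 of the 6 early activation genes were above 1. The part of the smaller gene sets in the lower counts was not tested. The cytotoxic list had 4 of 9 genes lower with a median of -0.98, and 2 of 6 lower and 1 higher with -0.16 without the deep cells. The inhibitory receptors had medians of 0.12 and 0.63 and the chemokine receptors -0.11 and 0.49.

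Genes that respond to type I interferon had a median of 0.10 over all members and of -0.63 without the deep cells, with 0 of 11 genes at least 2-fold higher and 3 lower there. Bst2, which encodes tetherin, an antiviral membrane protein, had summed levels of 541, 495, 487 and 259 CPM in cells up to 10000 UMIs, a ratio of combination to isotype of 0.478 (0.345 to 0.651). Rtp4 had 254, 282, 274 and 101 CPM there and a ratio of 0.396 (0.233 to 0.646). Over all members the ratios of Bst2 and Rtp4 were 0.911 and 0.701. The Th1 list had medians of 0.35 and -0.07, and the T cell receptor signalling list -0.48 and 0.01.

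**Figure D3:**
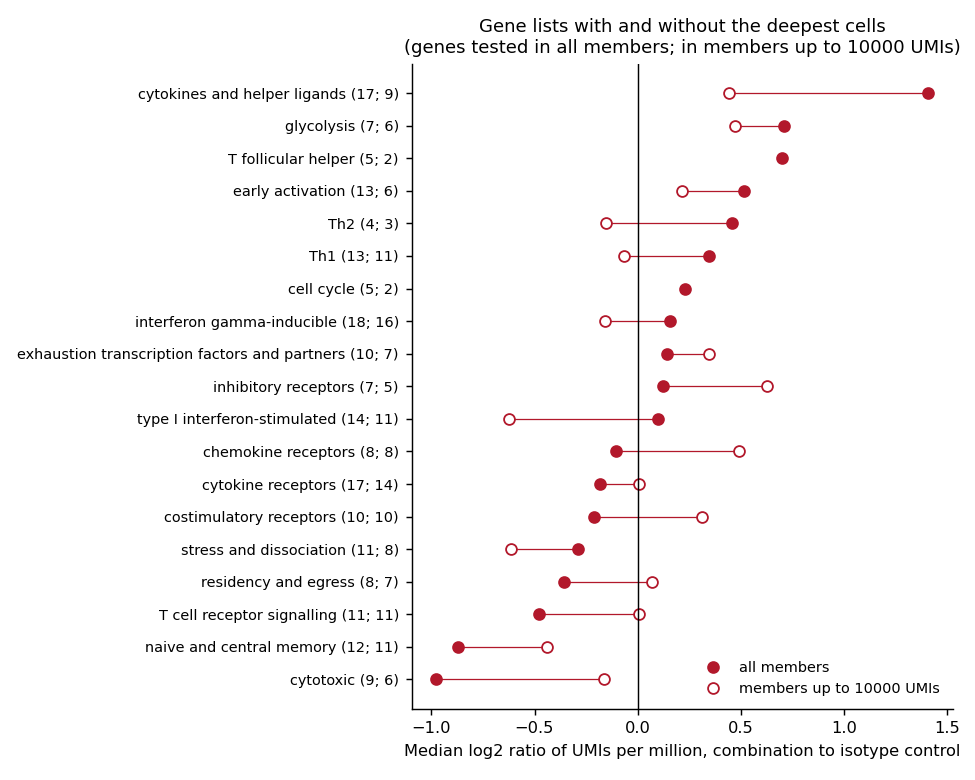
Median log2 ratio of CPM, combination to isotype library, for each gene list (horizontal axis), over all conventional CD4 T cells (filled points) and over those up to 10000 UMIs (open points); numbers beside each name count the genes tested. Naive and central memory genes lie below 0 and glycolysis genes above 0 in both sets, while type I interferon genes move from 0.10 to -0.63.

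Among 5118 genes with at least 100 UMIs, 144 were at least 2-fold higher in the combination library than in each other library and 59 were at most 0.5 times as high. The 5 highest ratios to the isotype library were Nos2, Egr3, Cxcl2, Ccl17 and Ccl1, and none of them described many cells. Nos2, inducible nitric oxide synthase, had 2, 22, 0 and 287 UMIs, a ratio of 106 (29.1 to 881), but 1 UMI in the combination cells up to 10000 UMIs. Cxcl2, a neutrophil chemokine made by myeloid cells, had 11, 19, 0 and 441 UMIs, a ratio of 29.7, and likewise 1 UMI there. Egr3, an early gene of T cell receptor signals, had 0, 24, 3 and 317 UMIs, at least 78.2-fold higher when the isotype library is set to 3 UMIs, and 151 of the 317 were in 1 cell. Ccl17, a ligand of CCR4, had 0, 1, 1 and 116 UMIs, at least 28.6-fold higher by the same limit, with 102 in 1 cell. Ccl1, a ligand of CCR8, had 15, 210, 40 and 555 UMIs, a ratio of 27.4, with 553 in 1 cell.

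The 5 lowest ratios were Gzmb, Cd7, Rflnb, Rcbtb2 and Gramd4. Gzmb, which encodes the cytotoxic protease granzyme B, had 235, 107, 40 and 18 UMIs, a ratio of 0.0567 (0.0330 to 0.0915), and 166 of the 235 UMIs of the isotype library were in 1 cell. As a share of members at the common depth Gzmb was 13.3% (6.72 to 22.2), 11.97%, 25.7% and 3.71% (0.369 to 10.5), with unthinned shares of 15.8%, 15.2%, 26.5% and 9.86% and 2.03% in macrophage-marked cells. Rcbtb2 was spread over more cells: its levels were 249, 159, 228 and 62.5 CPM, its ratio was 0.251 (0.170 to 0.364), and without the deep cells 0.310 (0.179 to 0.510). Gramd4 had levels of 126, 108, 145 and 32.1 CPM and ratios of 0.255 and 0.310 (0.125 to 0.670). The ratios of Cd7 and Rflnb were 0.133 and 0.185, and 0.532 (0.242 to 1.08) and 0.364 without the deep cells.

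In both single-antibody libraries most cytokine transcripts lay in a single cell. Over 15 cytokine and chemokine genes, the members of the isotype library held 261 UMIs, those of the library titled αCTLA-4 2346, those of the library titled αFcγRII 372 and those of the combination library 2002. The median cell had 1, 1, 1.5 and 2 of them, and 32, 76, 13 and 16 cells had none. The largest cell held 9.58% of the sum in the isotype library, 89.3% in the library titled αCTLA-4, 72.8% in the library titled αFcγRII and 28.3% in the combination library. Without that cell the levels of 566, 3055, 2831 and 3210 CPM became 557, 329, 818 and 2326. In the combination library 1338 of the 2002 UMIs lay in cells over 10000 UMIs.

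The high producers differed in what they made. The cell of the library titled αCTLA-4, with 6863 UMIs in all, held 940 UMIs of Il3, 417 of Ifng, 210 of Ccl1, 199 of Il2, 183 of Csf2 and 131 of Il13, with 1 UMI of Lyz2. The cell of the library titled αFcγRII, with 7983 UMIs, held 174 UMIs of the type 2 cytokine Il13, 41 of Csf2, 38 of Ccl1 and 11 of Lta, and none of Ifng or Lyz2. In the combination library, a cell of 6202 UMIs held 553 UMIs of Ccl1, a cell of 27841 UMIs held 132 of Tnf, 120 of Il13, 74 of Csf2 and 28 of Il21, and a cell of 31618 UMIs held 310 of Il13, 56 of Il2 and 27 of Il21. The last pair also held 145 and 137 UMIs of Lyz2. Ccl1 was found in 6 of the 315 cells up to 10000 UMIs, of which 5 had Ccr8, the gene of its receptor, and 6 had Tnfsf11, which encodes RANK ligand, where the other 309 cells had these in 14.6% and 26.5%. The 6 cells were deeper, with a median of 6875 UMIs against 3623, and the part of depth in these shares was not tested.

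**Figure D4:**
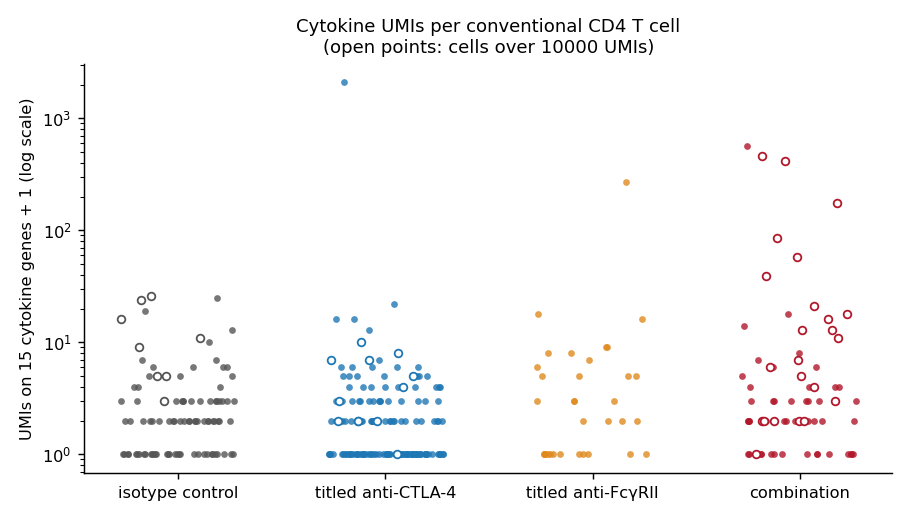
UMIs on 15 cytokine and chemokine genes plus 1 (vertical axis, log scale) for each conventional CD4 T cell, by library; open points are cells over 10000 UMIs. A single cell holds 2096 of the 2346 UMIs of the library titled αCTLA-4, and the combination library has 8 cells with 20 or more UMIs.

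Ifng over many cells ran differently from its summed level. It was detected at the common depth in 25.9% (17.2 to 36.9), 16.9% (11.2 to 24.3), 33.5% (16.7 to 51.4) and 13.5% (6.43 to 24.3) of members, with unthinned shares of 31.6%, 25.3%, 35.3% and 31.0% and 0.609% in macrophage-marked cells. Its shares without the deep cells were 25.9%, 18.1%, 33.5% and 14.2%. The level of 195, 641, 335 and 106 CPM was highest in the library titled αCTLA-4 through its single high producer. Tnf was detected in 14.7%, 16.2%, 19.9% and 22.5% of members at the common depth, and Mki67 or Top2a, genes of dividing cells, in 12.6%, 20.3%, 16.4% and 18.2%. The Tnf shares without the deep cells were 13.1%, 16.2%, 19.9% and 15.1%, and those of Mki67 or Top2a 10.85%, 19.4%, 16.4% and 19.6%. Macrophage-marked cells, which can express these genes themselves, showed 17.0% and 23.3%. The intervals of the 4 libraries overlapped for both.

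Each single-antibody library was set against the isotype library in the same way. In the library titled αCTLA-4, 77 of 5803 genes were at least 2-fold higher (1.33%) and 87 lower (1.5%), and without the deep cells 49 of 4721 (1.04%) and 64 (1.36%). In the library titled αFcγRII, with 34 cells, 49 of 3371 were higher (1.45%) and 208 lower (6.17%), against 36 of 2508 (1.44%) and 66 (2.63%) without the deep cells of the isotype library. All 7 macrophage markers tested were among those lower over all members. The glycolysis list of this library had 0 of 6 genes above 1, with a median log2 ratio of -1.09 over all members and -0.78 without the deep cells. Of all genes tested, 1685 of 3371 and 1135 of 2508 were above 1, with medians of -0.0005 and -0.05. Slc2a1 stood at 30.4 and Pgk1, phosphoglycerate kinase, at 76.1 CPM in the library titled αFcγRII. In the isotype library they stood at 176 and 223 over all members and at 142 and 170 without the deep cells. Ccl5, a chemokine of effector and memory T cells, was 2.79-fold higher in the library titled αFcγRII (2.43 to 3.20), at 2861 against 1026 CPM. All 3 comparisons share the isotype library. Pdcd1 was 1.59-fold higher in the combination library than in the library titled αCTLA-4 (1.35 to 1.88) and 1.23-fold higher than in the library titled αFcγRII (0.927 to 1.64) over all members. In cells up to 10000 UMIs these ratios were 2.87 (2.34 to 3.51) and 2.13 (1.59 to 2.90).

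The same genes were also read in the other T cells of the libraries, up to 10000 UMIs. Pdcd1 stood at 851, 1190, 1068 and 1158 CPM in CD8 T cells and in Tregs at 311, 370, 357 and 211, where the conventional CD4 T cells had 278, 334, 449 and 958. Ccr8 was 123, 98.9, 70.8 and 92.0 CPM in CD8 T cells and 363, 142, 527 and 0 in Tregs. The 0 rests on the 6 combination Tregs up to 10000 UMIs and allows up to 86.3 CPM, and over all 10 Tregs of that library Ccr8 had 5 UMIs, or 39.3 CPM. Bhlhe40 was also highest in the combination library in CD8 T cells, at 646, 737, 391 and 1035 CPM, and stood at 363, 304, 422 and 351 in Tregs. Over all CD8 T cells Bhlhe40 was 567, 763, 498 and 769 CPM. There the intervals of the library titled αCTLA-4 (729 to 799) and the combination library (734 to 805) overlapped. Tcf7 was also lowest in the combination library in CD8 T cells, at 190, 121, 121 and 79.8 CPM, and Klf2 there was 459, 240, 408 and 226. Whether the differences between libraries differ between cell types was not tested.

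Across the 4 libraries, conventional CD4 T cells were compared with the 187 Tregs and with the 674 CD8 T cells, gated with the same CD3 and macrophage limits, as sums per library and class with the library as a block. The Tregs had median depths of 4602, 4343, 5868 and 8825 UMIs and the CD8 T cells 5198, 6742, 6708 and 7654. Of 8520 genes tested, 185 were higher (2.17%) and 99 lower (1.16%) in conventional CD4 T cells than in Tregs at an adjusted p under 0.05, and 154 were higher (1.81%) and 110 lower (1.29%) than in CD8 T cells. The median log2 difference of all genes was -0.03 and -0.01, and none of the 9 macrophage markers tested passed in either comparison. Foxp3, the CD8 genes, Cd4 and Il1rl1 separate the classes, and cells with Il1rl1 were left out of the conventional cells but not of the Tregs, so that genes linked to any of these can differ by the way the cells were chosen. The cells over 10000 UMIs held between 44.1% and 71.7% of the UMIs of the Tregs and between 46.0% and 69.2% of those of the CD8 T cells. Without them, 260 genes were higher and 330 lower than in Tregs and 279 higher and 295 lower than in CD8 T cells, of 6865. Of the fits on 3 libraries, 3 called fewer against Tregs: 61 higher and 33 lower than in Tregs without the isotype library, 45 and 35 without the library titled αCTLA-4, and 52 and 18 without the library titled αFcγRII. Without the combination library they called 201 and 120. Against CD8 T cells these fits called 49 higher and 44 lower, 39 and 28, 65 and 42, and 99 and 93, in the same order.

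Against Tregs, helper ligands and Th1 genes were higher. Of 19 cytokines and helper ligands tested, 9 rose and none fell, and of 13 Th1 genes 8 rose and none fell. Cd40lg stood at 234, 289, 282 and 300 CPM in conventional cells and at 8.04, 13.8, 6.88 and 0 in Tregs, with no overlap, a log2 difference of 4.79 ± 0.47 (SE, adjusted p = 0.000371). Ifng was 195, 641, 335 and 106 against 16.1, 7.88, 25.2 and 7.86 CPM, a difference of 4.18 ± 0.56 (adjusted p = 0.00235). Cxcr6 rose by 3.13 ± 0.48 (adjusted p = 0.00516) and Tcf7 by 3.39 ± 0.44 (adjusted p = 0.00202). Themis, a protein of T cell receptor signalling, was 377, 451, 434 and 337 against 43.4, 43.4, 48.2 and 7.86 CPM, a difference of 3.30 ± 0.25 (adjusted p = 0.000154). These calls held in each of the 4 fits that left out a library.

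The 10 largest differences upward from Tregs were Ccl1, Tdrp, Zfp683, Gzmk, Igfbp7, Cd40lg, Gpm6b, St8sia1, Snai3 and Ifng. Gzmk, granzyme K, a protease of memory-like T cells (chr13:113171608-113225908, minus strand), was 119, 158, 190 and 43.3 CPM against 0, 5.91, 0 and 0, a log2 difference of 6.05 ± 0.59 (adjusted p = 0.000343). Zfp683, which encodes Hobit, a factor of tissue-resident T cells (chr4:134053838-134058996, plus strand), was 60.7, 63.8, 22.8 and 51.3 against 0, 0, 2.29 and 0, a difference of 6.07 ± 0.63 (adjusted p = 0.00051). Ccl1 passed at 8.29 ± 0.87 (adjusted p = 0.00051), on UMIs that few cells held. Tdrp had 48 UMIs in conventional cells and none in Tregs, at least 13.7-fold higher with all Tregs together set to 3 UMIs. The call of Tdrp was lost without the library titled αCTLA-4 (adjusted p = 0.0594). St8sia1 did not pass without the isotype library (adjusted p = 0.0562) or the library titled αCTLA-4 (adjusted p = 0.0729), and Snai3 did not without the isotype library (adjusted p = 0.0890) or the library titled αFcγRII (adjusted p = 0.119). Igfbp7 passed in no fit that left out a library, with adjusted p from 0.0525 to 0.198, nor without the deep cells (adjusted p = 0.156).

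Treg genes outside the gate fell. Of 8 Treg markers tested, 6 were lower and none higher, with a median log2 difference of -2.63. Il2ra fell by 2.94 ± 0.39 on the log2 scale (adjusted p = 0.00235), Ikzf2 by 2.69 ± 0.29 (adjusted p = 0.000683) and Tnfrsf9, which encodes the costimulatory receptor 4-1BB, fell by 2.57 ± 0.27 (adjusted p = 0.00051). Ccr8, on the same list, differed by -0.04 ± 0.56 (adjusted p = 0.991). The 10 largest differences downward were Jcad, Neb, Klrg1, Itgb8, Rln3, Lrrc32, Arnt2, Csrp2, Ikzf4 and Itgae. Klrg1, an inhibitory receptor of terminally differentiated effector T cells and Tregs, was 8.67, 14.3, 38.0 and 1.60 CPM against 589, 128, 443 and 86.5, and fell by 4.62 ± 0.64 (adjusted p = 0.00317). Lrrc32, which encodes GARP, the surface carrier of latent TGF-β on Tregs, was 15.2, 31.2, 0 and 11.2 against 199, 181, 126 and 433, and fell by 3.70 ± 0.58 (adjusted p = 0.00619). Itgae, the integrin CD103, was 32.5, 20.8, 38.0 and 11.2 against 328, 122, 248 and 78.6 CPM and fell by 2.95 ± 0.36 (adjusted p = 0.0013). Itgb8, Arnt2 and Csrp2 did not pass without the library titled αFcγRII, with adjusted p = 0.0831, 0.181 and 0.138, and Itgb8 and Arnt2 did not without the isotype library, both with adjusted p = 0.0607. Without the combination library the adjusted p of Arnt2 was 0.0837.

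Against CD8 T cells, Cd40lg and genes of the Th2 and Th17 lists were higher, 2 of 3 tested in each list, whereas 1 of 13 Th1 genes rose and 2 fell. Among the 10 largest differences upward were Ccr4, Ccr6, Cd40lg, Tnfrsf25, Ramp3, Plcb4, Ncmap, Rflnb and Asb2. Ccr4, a chemokine receptor of Th2 cells and of skin-homing cells (chr9:114490316-114504916, minus strand), was 121, 188, 160 and 119 CPM against 2.21, 2.47, 0 and 1.25, a log2 difference of 6.31 ± 0.31 (adjusted p = 8.93e-07). Ccr6, a chemokine receptor of Th17 cells, rose by 4.50 ± 0.63 (adjusted p = 0.00311). Ramp3, a partner of calcitonin-family receptors, was 182, 290, 221 and 231 CPM against 18.8, 12.4, 16.4 and 9.98, a difference of 4.07 ± 0.29 (adjusted p = 4.04e-05). Gata3 rose by 1.43 ± 0.15 (adjusted p = 0.000612) and Cxcr3 by 1.43 ± 0.15 (adjusted p = 0.000703). Of 12 naive and central memory genes, Lef1, Tcf7, Klf2, S1pr1 and Slamf6 rose and Cd27 fell, and each of these 6 missed the threshold in at least 1 fit that left out a library. Without the deep cells the adjusted p of Klf2 was 0.0758. The call of Rflnb was lost without the library titled αFcγRII (adjusted p = 0.0529), and that of Ncmap without the library titled αCTLA-4 (adjusted p = 0.204) or the isotype library (adjusted p = 0.117). Asb2 passed without the library titled αCTLA-4 but not without the isotype library, the library titled αFcγRII or the combination library, with adjusted p = 0.0709, 0.0608 and 0.138.

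Cytotoxic genes were lower than in CD8 T cells. Of 13 tested, 7 fell and none rose, with a median log2 difference of -2.30. Prf1, perforin, was 78.1, 10.4, 7.61 and 1.60 CPM against 379, 890, 611 and 363, and fell by 4.71 ± 0.72 (adjusted p = 0.00453). Nkg7, a granule protein of cytotoxic lymphocytes, fell by 2.34 ± 0.37 (adjusted p = 0.00574), at 388, 457, 693 and 197 against 1583, 2495, 2403 and 1748 CPM. The 10 largest differences downward were Gzmf, Klra7, Ccl4, Rgs8, Prf1, Crtam, Lag3, Adgrg1, Setbp1 and Cd160. Gzmf, granzyme F, was 10.8, 1.30, 0 and 4.81 against 161, 861, 915 and 461 CPM and fell by 6.80 ± 0.58 (adjusted p = 0.000798). Lag3, an inhibitory receptor, was 65.0, 16.9, 45.7 and 25.7 against 512, 770, 1022 and 458, and fell by 4.38 ± 0.55 (adjusted p = 0.00189). Of 11 inhibitory receptors 4 fell and 1, Cd5, rose. Pdcd1 differed by -1.16 ± 0.31 and did not pass (adjusted p = 0.0786), with levels of 230, 345, 449 and 550 CPM in conventional CD4 T cells against 659, 1114, 986 and 703. Ccl4, Adgrg1 and Klra7 did not pass without the library titled αCTLA-4, with adjusted p = 0.0646, 0.0625 and 0.0903, and Klra7 did not without the isotype library or the combination library, with adjusted p = 0.0737 and 0.114.

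**Figure D5:**
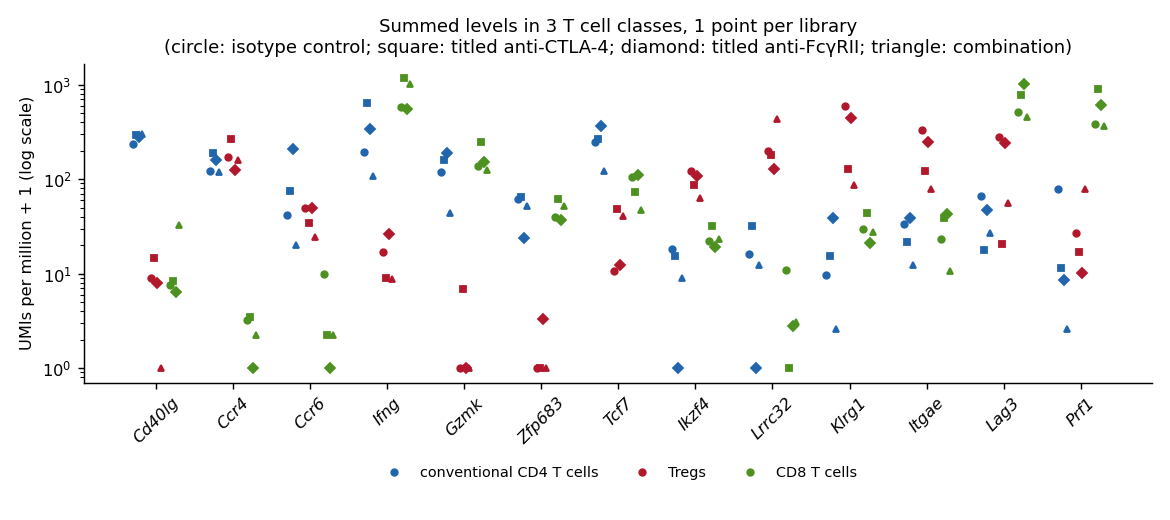
CPM plus 1 (vertical axis, log scale) of named genes in conventional CD4 T cells, Tregs and CD8 T cells, 1 point for each library (circle isotype, square titled αCTLA-4, diamond titled αFcγRII, triangle combination). Cd40lg lies between 234 and 300 CPM in conventional CD4 T cells and at or below 32.0 in the other classes.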

How the data were processed

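Viable CD45+ tumor cells were fixed, hybridized with the probes of the 10x Genomics Flex assay and sequenced. The authors deposited raw UMI counts per gene and cell, with no normalization, of 19059 genes in 28290 barcodes called as cells, 1 library for each of 4 groups. No batch is given in the sources used here. The matrix headers name Cell Ranger 7.2.0 and the submitters' processing notes Cell Ranger 7.0.0, with the build mm10. Coordinates come from the GENCODE genes of GRCm38, the assembly that mm10 names, matched by gene identifier.

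Cells under 500 genes (67) or over 10% mitochondrial UMIs (48) were left out, 96 in all. Scrublet, run in scanpy 1.11.5, called 1227, 1, 2 and 3 doublets automatically, did not work in 3 libraries, and removed no cell in the main analysis. The 5% of highest scores marked 1, 3, 0 and 2 members, each over 10000 UMIs.

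Levels are UMIs summed over members per 1000000 of their UMIs. Poisson, conditional and binomial intervals were exact at 95%, and a log interval was used for a ratio of shares. Shares of cells with a UMI were expected values after drawing each cell down to the 10th percentile of depth, 2202 UMIs, under the hypergeometric distribution. Treatments were compared by fold only, at 2-fold on genes with at least 50 UMIs. Classes of cells were compared by the quasi-likelihood test of edgeR 4.0.16 (R 4.3.3) on 12 sums with the library as a block, two-sided, with Benjamini-Hochberg adjustment over all genes tested, and by DESeq2 1.42.0 as an alternative. The libraries, which differ in treatment, are the replicates of these tests. The scripts were tested on simulated data. On simulated sums with a fixed spread, the class test recovered 41.1% of 2-fold changes against Tregs and 44.4% against CD8 T cells. It recovered 96.6% and 98.9% of 4-fold changes, and 2.4% and 2.3% of its calls were false. All else was computed in Python 3.11.15 with scipy 1.17.1, numpy 2.4.6 and pandas 2.3.3.

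The text names genes of 30 fixed lists, the 5 highest and 5 lowest ratios of the combination to the isotype library among genes with at least 100 UMIs that differed at least 2-fold from each other library, and the 10 largest differences each way between classes among genes past an adjusted p of 0.05 with the same direction in 4 libraries, without genes of the gate. The cells, lists and tests were chosen with earlier results of these data known. Of 298 list genes, 7 were not analysed here and 1 symbol with more than 1 identifier was left out. Levels of different genes are not comparable, because probe numbers and efficiencies differ. Alternatives covered the limits of the gate, doublet scores, scaling, count minimums, each library left out and deep cells. Results on some genes are not reported here.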

Additional observations from a re-analysis of the deposited data

How the results depend on the processing

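Between treatments, 269 genes were at least 2-fold higher and 133 at most 0.5 times as high in the combination library. A minimum of 100 UMIs gave 161 and 43, leaving out the cells over 10000 UMIs gave 59 and 66, and median-of-ratios scaling gave 79 lower genes. By construction the higher minimum and the smaller set of cells test fewer genes, and any further cause was not tested. For the ratio of the combination to the isotype share of cells with a marker, all 98 alternatives lay within the counting intervals of the ratios, as did those for the ratio of the shares of conventional CD4 T cells among kept cells. Among 131 medians under alternatives, of lists with at least 3 genes tested, 8 changed sign with at least 0.1 on the log2 scale on both sides. With a macrophage limit of 0.1% the Th1, follicular helper and chemokine receptor medians became -0.114, -0.146 and 0.149. Without the cells over 10000 UMIs, the Th2, costimulatory receptor, chemokine receptor, type I interferon and interferon-γ medians became -0.152, 0.313, 0.49, -0.626 and -0.157. Sign changes to values nearer 0 there were those of the Th1 (-0.07), residency and egress (0.07), T cell receptor signalling (0.01) and cytokine receptor (0.01) lists, and the cell cycle list went from 0.23 to -0.38 with 2 genes tested, too few to be counted among the 8. Between classes, the 99 genes lower than in Tregs became 194 with DESeq2, 250 with no filter on low counts, 153 with the macrophage limit of 0.1% and 330 without the cells over 10000 UMIs. The 110 lower than in CD8 T cells became 173, 196 and 295 under the last 3 of these, and the 154 higher became 279 without those cells. Leaving out each library in turn gave 45 to 201 higher and 18 to 120 lower than in Tregs, and 39 to 99 higher and 28 to 93 lower than in CD8 T cells, with fewer sums in each fit. Without the library block the counts were 166 and 78 against Tregs and 122 and 77 against CD8 T cells. Of 454 alternatives for single genes between classes, 426 kept direction and call and 28 lost the call. These genes were those named for the largest differences, picked because they passed in the main fit. Alternatives in which a gene was not tested are not counted. Of all 284 calls against Tregs, 74, 68, 69 and 200 were kept without the isotype, titled αCTLA-4, titled αFcγRII and combination library. Of 264 calls against CD8 T cells, 87, 65, 105 and 151 were kept, in the same order. For single genes compared by fold between treatments, 47 alternatives were scored as the same and 19 as moved. No paired analysis of treatments was possible because each group has 1 library. The shallow depth of the cells limits all shares, and the library titled αFcγRII, with 34 cells, gives the widest intervals.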

Other observations

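B2m, the light chain of MHC class I, was lower in the isotype library than in the others in the 4 cell classes given here. In conventional CD4 T cells it stood at 1071, 2253, 2656 and 3016 UMIs per 1000000 (CPM), in the order isotype, titled αCTLA-4, titled αFcγRII and combination. Macrophage-marked cells had 1048, 2311, 2026 and 3323 CPM and CD8 T cells 1128, 2355, 2583 and 3147. In Tregs the levels were 1370, 1665, 2870 and 3610. Treatment and library cannot be told apart here.

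Markers of other lymphocytes were also read in the conventional CD4 T cells. For γδ T cells and natural killer T cells, the 4 markers Trdc, Tcrg-C1, Sox13 and Zbtb16 summed to 95.4 CPM in the isotype library, 41.7 in the library titled αCTLA-4, 7.61 in the library titled αFcγRII and 4.81 in the combination library. NK cell markers summed to 1039, 475, 122 and 1195 CPM and the gene with the most UMIs among them was Tyrobp, an adaptor that macrophages share, at 911, 422, 53.3 and 1172. Without the cells over 10000 UMIs the NK cell sums were 269, 140, 122 and 71.8. B cell markers summed to 4.34, 126, 0 and 1.60 CPM and tumor and stroma markers to at most 6.50. The B cell sum of the library titled αCTLA-4 was 5.14 CPM without the cells over 10000 UMIs. The summed level of 11 stress and dissociation genes was 4627, 2875, 4825 and 4177 CPM, and 4606, 2613, 4825 and 2978 without the cells over 10000 UMIs.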
